A study of Mus musculus with 8 samples.

Results

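White adipocytes lacking Yap and Taz (Ad-Yap/Taz-KO, here KO) were compared with those of wild-type (WT) littermates, both on standard diet (SD), in 4 of the 8 libraries of the series. The comparison covered the 18800 of 30387 listed genes whose normalized count averaged 5 or more over the 8 libraries. The libraries were taken by genotype and diet, and the filter on low values was the only use of expression.

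Both groups were mature adipocytes isolated from the epididymal fat of mice that had received SD, also called normal chow, for 4 weeks, with 2 libraries per genotype. By the labels the diets started at week 5 of age, whereas the study's methods give a slightly later age, and they state that the mice were male. KO mice carry Adipoq-Cre, which is active in adipocytes from their formation on, and are homozygous for floxed alleles of both genes (Yap fl/fl and Taz fl/fl). The deletion is therefore constitutive and restricted to adipocytes, and other cells of the fat pad keep both genes. The other 4 libraries, 2 per genotype, came from mice given high-fat diet (HFD) for 4 weeks.

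YAP and TAZ (encoded by Yap1 and Wwtr1) are co-activators that enter the nucleus when the Hippo kinases LATS1 and LATS2 are inactive and then switch genes on or off, mostly through TEAD transcription factors. Mechanical tension, G-protein signalling and cytokines regulate them. In white adipocytes, which store triglyceride and secrete adiponectin and leptin, they are studied as regulators of survival, differentiation and thermogenesis.

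The values, called normalized counts, are numbers of reads per gene after scaling by a size factor of the library and rounding. Their totals lay between 15438050 and 16939161 in the SD libraries. Adipocyte markers such as Adipoq and Plin1 were abundant in each SD library, and Y-linked Ddx3y lay between 1623 and 1922 normalized counts. The study describes the libraries of a group as coming from separate mice, which the sample labels do not state, and the p-values measure the spread between these libraries. That spread was estimated over all 4 groups of the series. The squared difference of the paired libraries, over genes with 1000 to 5000 reads, exceeded the Poisson expectation 28.0 times for WT and 57.5 times for KO on SD, but 5.87 times for WT on HFD. Counting the WT HFD pair as 1 sample lowered the number of called genes from 886 to 648, and a fit of the 4 SD libraries alone called 461. A gene was called when its p by limma's moderated test, after Benjamini-Hochberg adjustment over all tested genes, did not exceed 0.05 and its log2 fold change reached 0.59 upward or downward. Fold changes (log2 FC) are on the log2(normalized count + 1) scale, given ± SE, with n = 2 per group. An exact permutation test of a single gene cannot go below p = 0.333 with 2 against 2 libraries.

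Deletion of both genes was visible in their transcripts. Wwtr1 (chromosome 3, 57455649 to 57575910, GRCm38) had normalized counts of 5594 and 4743 (WT) against 2441 and 1957 (KO) (log2 FC -1.24 ± 0.18, adjusted p = 0.00097). Yap1 (chromosome 9, 7931999 to 8004596) had 2776 and 2717 (WT) against 1669 and 1699 (KO) (log2 FC -0.71 ± 0.16, adjusted p = 0.024). Both KO libraries were below both WT libraries for each gene, as for 22.2% of all tested genes, and neither gene was near 0. Reads from exons outside the floxed part still count, and cells without Adipoq-Cre keep both genes, so the remaining level does not measure remaining protein. The call of Wwtr1 held when any 1 SD library was left out, whereas that of Yap1 did not (adjusted p between 0.07 and 0.17, log2 FC between -0.72 and -0.69).

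Of 18800 genes, 604 (3.21%) were higher and 282 (1.5%) lower in KO than in WT adipocytes. The rises were also larger, with a median log2 FC of 1.67 among the called rises and -1.13 among the called falls. The median over all tested genes was -0.01. Protein-coding genes made up 94.7% of the rises and 93.6% of the falls. In the fits of all libraries, of the SD libraries alone and with the WT HFD pair as 1 sample, 332 rises (1.77% of tested genes) and 110 falls (0.585%) were called each time. A total of 238 rises and 56 falls kept their call in each of the 4 fits that left out 1 SD library. Fewer genes were called when a WT library was left out, 494 without WT replicate 1 and 381 without WT replicate 2. Without KO replicate 1, 382 rises and 396 falls were called, so the share of rises went from 68.2% to 49.1%, whereas it was 80.6% without WT replicate 2.

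**Figure D1:**
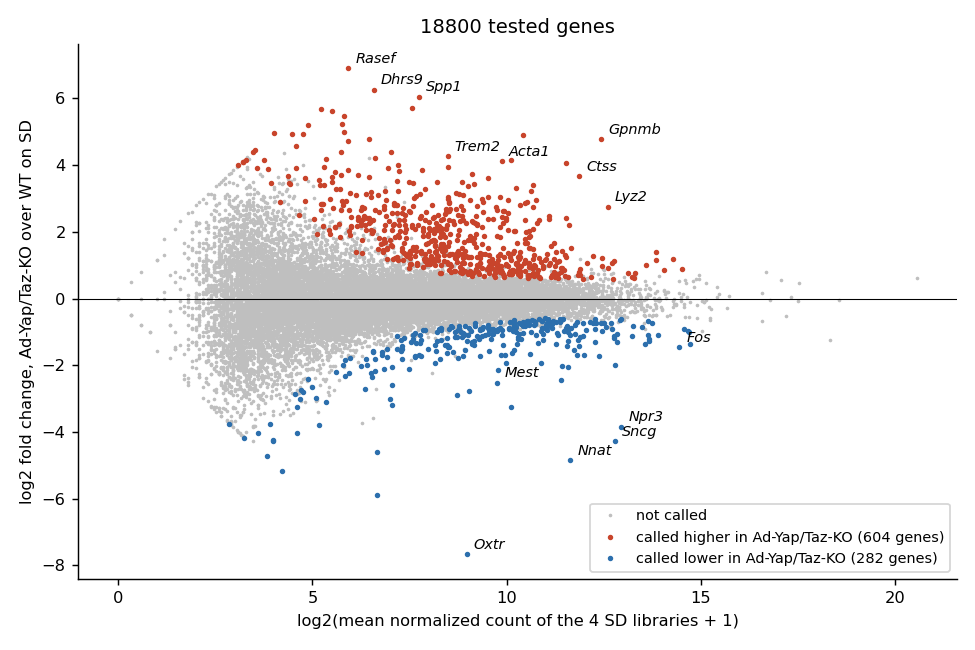
Log2 FC of KO over WT adipocytes on SD (vertical axis) against the log2 mean normalized count of the 4 SD libraries plus 1 (horizontal axis), 1 point per tested gene, with called genes in colour. The 604 rises reach log2 FC 6.90 (Rasef) and the 282 falls reach -7.67 (Oxtr).

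A few of the best known YAP/TAZ targets were lower in KO adipocytes, and most members of a list of 22 targets were not called. Of 21 tested targets, Amotl2 and Cyr61 fell (1.5% of all tested genes did), Myof rose (3.21% did), and 18 were not called. The median log2 FC of the list was -0.42, beside -0.01 over all tested genes, and 14 of 21 members had a negative value. Amotl2, an angiomotin family scaffold that binds YAP, had normalized counts of 4254 and 5972 (WT) against 1672 and 1760 (KO) (log2 FC -1.55 ± 0.18, adjusted p = 0.0002). Cyr61, a secreted matrix-associated protein also named Ccn1, had 5335 and 5442 against 2494 and 1657 (log2 FC -1.41 ± 0.18, adjusted p = 0.00047). For both genes each WT library lay far above each KO library. Myof, encoding the membrane repair protein myoferlin, went the other way with 730 and 607 (WT) against 2835 and 2067 (KO) (log2 FC 1.86 ± 0.18, adjusted p = 6.8e-05).

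Other classical targets did not pass. Ctgf, the matricellular growth factor, was low in these adipocytes, with normalized counts of 101 and 154 (WT) against 120 and 56 (KO) (adjusted p = 0.52), and its groups overlapped. Lats2, the kinase that restrains YAP/TAZ and is itself a target, had 1634 and 1724 against 1370 and 958 (log2 FC -0.55 ± 0.19, adjusted p = 0.14), and it passed only without KO replicate 1 (adjusted p = 0.035). Ankrd1 was under the filter on low values.

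Among 20 genes of the TEAD and Hippo list, 3 fell and none rose, beside 1.5% of all tested genes called lower, and 1 of the 3 calls held without any 1 SD library. They were Amotl2, already counted among the targets, Vgll4, which encodes a TEAD cofactor that competes with YAP, and Wwc2, a KIBRA family member that promotes LATS activity. Vgll4 had normalized counts of 1118 and 846 (WT) against 503 and 517 (KO) (log2 FC -0.93 ± 0.20, adjusted p = 0.016). Wwc2 had 1842 and 1792 against 1111 and 938 (log2 FC -0.83 ± 0.16, adjusted p = 0.0088). The groups did not overlap for either, but the call of Vgll4 was lost in some fits without 1 SD library (adjusted p up to 0.19, without WT replicate 1), as was that of Wwc2 (up to 0.083, also without WT replicate 1). Tead1, the most widely expressed TEAD factor, had 2838 and 2657 (WT) against 2741 and 3748 (KO) (adjusted p = 0.56). The median of the list was -0.21.

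**Figure D2:**
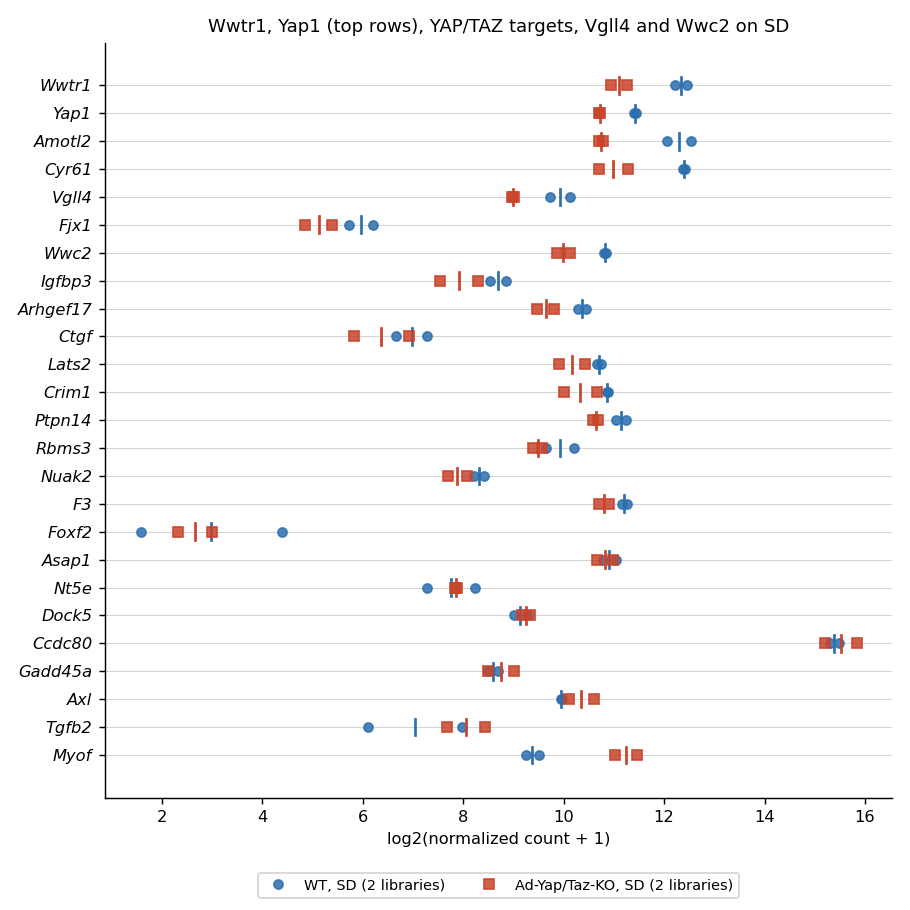
Log2(normalized count + 1) of Wwtr1, Yap1, the tested YAP/TAZ targets, Vgll4 and Wwc2 in each SD library, with circles for WT, squares for KO and vertical bars for the mean of each group of 2. Amotl2 and Cyr61 stand apart below WT, Myof stands above it, and 11 of 21 targets have both KO libraries below both WT libraries, as do 22.2% of all tested genes.

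The promoters of the 4 lower genes of these lists are shown because each holds the TEAD core motif GGAATG or its reverse complement CATTCC in the 250 bases before the RefSeq start. The motif is not particular to lowered genes. It also occurred in list members that were not called, such as Axl and Tead3, and in the raised genes Rasef and Acta1. Sequences are from RefSeq (GRCm38.p6), 5′ to 3′ on the strand of the gene, with the motif in capitals. For Amotl2 and Wwc2 those bases are annotated as exon of another transcript, so 30 bases around a motif are given. The Cyr61 window is chr3:145649986-145650235, that of Vgll4 chr6:114969204-114969453, that of Amotl2 chr9:102717727-102717756 and that of Wwc2 chr8:47990730-47990759. All but Amotl2 are on the minus strand.
Cyr61: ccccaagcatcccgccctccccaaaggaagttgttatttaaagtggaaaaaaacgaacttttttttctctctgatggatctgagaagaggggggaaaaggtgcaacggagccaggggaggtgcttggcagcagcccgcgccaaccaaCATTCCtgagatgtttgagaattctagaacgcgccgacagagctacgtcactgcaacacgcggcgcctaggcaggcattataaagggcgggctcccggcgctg
Vgll4: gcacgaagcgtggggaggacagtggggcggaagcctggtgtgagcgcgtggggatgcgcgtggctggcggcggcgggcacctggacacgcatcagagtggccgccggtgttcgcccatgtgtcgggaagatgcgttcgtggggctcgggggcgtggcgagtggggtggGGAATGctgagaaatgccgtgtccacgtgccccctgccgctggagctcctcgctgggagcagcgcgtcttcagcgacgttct
Amotl2: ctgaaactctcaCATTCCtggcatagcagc
Wwc2: gagcgagctgtgCATTCCtccgccctaccg
The first motif base lies 103 bases before the start of Cyr61, 82 before Vgll4, 65 before Amotl2 and 203 before Wwc2, whose window holds 3 matches in all.

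The motif was searched on both strands in the windows of all tested genes that matched a RefSeq symbol, 12370 of 18800. It occurred in 13.2% of these genes, in 14.8% of the 446 matched genes called higher and in 19.2% of the 208 matched genes called lower. The AP-1 motif TGANTCA, searched in the same way, occurred in 6.07% of all matched genes, in 11.7% of those called higher and in 5.29% of those called lower. A gene with several starts held the motif when any of its windows did. A match describes the letters of the window and was not tested for binding.

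The genes with the largest falls had varied roles. Oxtr, the oxytocin receptor (chromosome 6, 112473683 to 112489943), fell furthest in the fit of all libraries, from normalized counts of 841 and 1136 (WT) to 0 and 22 (KO) (log2 FC -7.67 ± 0.95, adjusted p = 0.00038). Nnat, an imprinted proteolipid of the endoplasmic reticulum (chromosome 2, 157560078 to 157562522), had 6179 and 6069 (WT) against 269 and 166 (KO) (log2 FC -4.85 ± 0.23, adjusted p = 6.7e-07). Sncg, gamma-synuclein, a lipid droplet-associated protein abundant in white fat, had 10237 and 16667 against 769 and 587 (log2 FC -4.28 ± 0.22, adjusted p = 6.7e-07). Each of these 3 genes was at least an order of magnitude lower in every KO library than in any WT library. Npr3, the clearance receptor for natriuretic peptides, had 9692 and 20151 (WT) against 1046 and 903 (KO) (log2 FC -3.84 ± 0.25, adjusted p = 2.6e-06). Its WT libraries differed from each other, but the groups stayed far apart. The log2 FC of Oxtr was -5.41 without KO replicate 1 and -9.93 without KO replicate 2, and Gm15519, described next, was at -7.62 without KO replicate 1, so the order of the falls rests on that library.

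Further falls were in Pkp2, a desmosomal plaque protein, with normalized counts of 1806 and 2222 (WT) against 174 and 251 (KO) (log2 FC -3.25 ± 0.22, adjusted p = 2.6e-06). Bmp3, a secreted TGF-beta family member that opposes other BMPs, had 131 and 346 against 16 and 32 (log2 FC -3.18 ± 0.43, adjusted p = 0.00072). Prelp, a small leucine-rich proteoglycan, had 3475 and 5616 against 959 and 692 (log2 FC -2.44 ± 0.21, adjusted p = 3e-05). In Bmp3 and Prelp the 2 WT libraries were spread wider than the 2 KO libraries, and the groups did not overlap. Folh1, a membrane glutamate carboxypeptidase, had 85 and 308 (WT) against 8 and 4 (KO) (log2 FC -4.60 ± 0.71, adjusted p = 0.0018). Cryab, a small heat-shock protein, had 553 and 926 against 156 and 59 (log2 FC -2.88 ± 0.45, adjusted p = 0.0018). Il34, a ligand of the CSF1 receptor on macrophages, had 144 and 162 against 26 and 33 (log2 FC -2.34 ± 0.40, adjusted p = 0.0035). The calls of these last 3 genes were lost without WT replicate 2 (adjusted p = 0.062, 0.057 and 0.065), with the direction kept. Rasl11a, a small GTPase, had 251 and 199 against 38 and 35 (log2 FC -2.58 ± 0.44, adjusted p = 0.0038) and was not called without WT replicate 1 (adjusted p = 0.07). The same rule also named the poorly described genes D430019H16Rik, at -2.77 ± 0.34, and Gm7008, at -3.00 ± 0.37 with 24.6% of its exon bases under exons of other genes on the opposite strand, and the processed pseudogene Gm15519, at -5.89 ± 0.94 and not called without WT replicate 2 (adjusted p = 0.054). Single libraries moved 4 of these values by more than 1.5-fold. Without WT replicate 1 and without WT replicate 2 the log2 FC was -3.87 and -2.48 for Bmp3 and -5.53 and -3.68 for Folh1. Without KO replicate 1 and without KO replicate 2 it was -3.58 and -2.19 for Cryab and -7.62 and -4.16 for Gm15519.

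**Figure D3:**
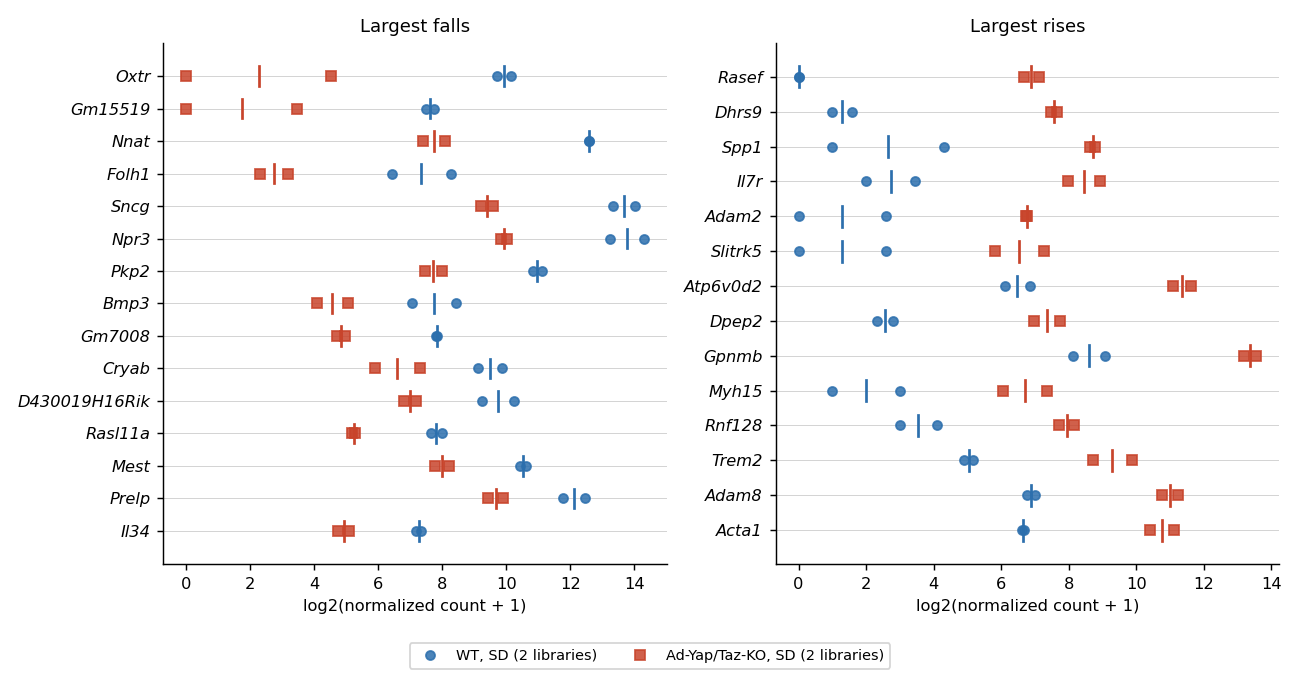
Log2(normalized count + 1) in each SD library for the genes with the largest falls (left) and largest rises (right), with circles for WT, squares for KO and vertical bars for the mean of each group of 2. The rule that chose these genes required WT and KO libraries not to overlap, as in 45% of all tested genes, so the separation is a description. The falls reach -7.67 (Oxtr) and the rises 6.90 (Rasef).

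Among 24 tested genes for adipocyte receptors, 3 fell (1.5% of all tested genes did), none rose and 21 were not called, with a median log2 FC of -0.49 and 19 negative values. Beside Oxtr, Adora1, the Gi-coupled adenosine receptor that restrains lipolysis, had normalized counts of 618 and 712 (WT) against 159 and 237 (KO) (log2 FC -1.77 ± 0.30, adjusted p = 0.0032). Mc2r, the ACTH receptor, had 134 and 230 against 26 and 61 (log2 FC -2.11 ± 0.47, adjusted p = 0.021). The groups did not overlap for either gene, and both calls were lost without WT replicate 2 (adjusted p = 0.068 and 0.28), that of Mc2r also without KO replicate 1 or WT replicate 1 (0.11 and 0.058). The log2 FC of Mc2r was -1.51 without KO replicate 1 and -2.71 without KO replicate 2. Adrb3, the main beta-adrenergic receptor of mouse adipocytes, overlapped between groups, with 6070 and 4375 (WT) against 3737 and 4557 (KO) (adjusted p = 0.67).

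Among 21 tested imprinted genes, 5 fell (1.5% of all tested genes did) and none rose, with a median of -0.50. Imprinted genes are expressed from the allele of 1 parent, and many act on growth. After Nnat came Mest, a hydrolase-like protein linked to adipocyte size, with normalized counts of 1375 and 1567 (WT) against 295 and 220 (KO) (log2 FC -2.52 ± 0.20, adjusted p = 1.5e-05). Of its exon bases 23.1% lie under exons of Copg2 on the opposite strand. Plagl1, a zinc finger transcription factor, had 2264 and 2462 against 695 and 802 (log2 FC -1.66 ± 0.18, adjusted p = 0.00013), and Peg3, also a zinc finger protein, had 5215 and 5129 against 1806 and 2971 (log2 FC -1.16 ± 0.20, adjusted p = 0.0035). The groups did not overlap for any of these genes. Zim1, which neighbours Peg3, had 64 and 79 against 11 and 5 (log2 FC -3.09 ± 0.49, adjusted p = 0.0023). Peg3 was not called without WT replicate 2, and the other 4 calls held without any 1 SD library. That of Zim1 was lost in the fit of the 4 SD libraries alone.

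Of 18 tested WNT modulators 3 fell (1.5% of all tested genes did) and none rose, with a median of -0.49. Sfrp5, a secreted WNT antagonist of white fat, had normalized counts of 61 and 212 (WT) against 40 and 19 (KO) (log2 FC -2.0 ± 0.50, adjusted p = 0.039). Wnt5a, a non-canonical ligand, had 273 and 328 against 144 and 167 (log2 FC -0.94 ± 0.23, adjusted p = 0.032), and the receptor gene Fzd4 had 7555 and 10174 against 4000 and 5385 (log2 FC -0.92 ± 0.20, adjusted p = 0.018). None of the 3 calls held in all fits without 1 SD library: without WT replicate 2 the adjusted p was 0.43 for Sfrp5, 0.29 for Wnt5a and 0.25 for Fzd4. The log2 FC of Sfrp5 was -2.89 without WT replicate 1 and -1.11 without WT replicate 2.

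In contrast to these falls, the genes that define the white adipocyte were not called. None of 17 adipocyte genes passed, and their median was -0.09. Adipoq, adiponectin, had normalized counts of 35132 and 33392 (WT) against 26648 and 39149 (KO) (adjusted p = 0.92). Plin1, the lipid droplet coat protein, had 33826 and 38431 against 29832 and 37876 (adjusted p = 0.89), and Pparg, the adipogenic nuclear receptor, had 2956 and 3028 against 2149 and 2899 (adjusted p = 0.48). Their groups overlapped or nearly touched. Lep, encoding leptin, varied within each group, with 10493 and 19324 (WT) against 6932 and 10784 (KO) (log2 FC -0.72 ± 0.52, adjusted p = 0.54).

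Lipid synthesis genes were mixed. Of 15 genes of de novo lipogenesis 1 fell, beside 1.5% of all tested genes, Elovl6, a fatty acid elongase, from 390 and 438 normalized counts to 145 and 198 (log2 FC -1.28 ± 0.24, adjusted p = 0.0067), and its call was lost without WT replicate 2 (adjusted p = 0.1). Scd1, stearoyl-CoA desaturase, had the highest values of the list, with 457683 and 455110 (WT) against 163234 and 233338 (KO) (log2 FC -1.23 ± 0.41, adjusted p = 0.13), and it was called under quantile normalization (log2 FC -1.59) and under robust moderation of the variance (log2 FC -1.23), both at an adjusted p of 0.014 by limma. Fasn, fatty acid synthase, had 42835 and 44565 against 18280 and 27415 (log2 FC -0.96 ± 0.31, adjusted p = 0.12). The groups did not overlap for these 3 genes, while the median of the list was -0.07. Neither the 16 genes of fatty acid oxidation (median 0.43, 12 positive) nor the 17 of branched-chain amino acid breakdown (median 0.17, 15 positive) held a called member. Hadha, the alpha subunit of the mitochondrial trifunctional protein, came closest with 3311 and 3386 against 4840 and 5537 (log2 FC 0.63 ± 0.17, adjusted p = 0.053), and it passed with a pseudocount of 8, a minimum mean of 50 or quantile normalization (adjusted p between 0.028 and 0.047).

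Of 10 tested thermogenic genes 3 rose (3.21% of all tested genes did) and none fell. Cidea, a lipid droplet protein of brown and beige fat, had normalized counts of 3 and 12 (WT) against 76 and 86 (KO) (log2 FC 3.50 ± 0.66, adjusted p = 0.0076). Dio2, the deiodinase that activates thyroid hormone, had 37 and 12 against 188 and 226 (log2 FC 3.22 ± 0.67, adjusted p = 0.014), and Cox8b, a muscle and brown fat subunit of cytochrome oxidase, had 71 and 9 against 236 and 266 (log2 FC 3.23 ± 0.68, adjusted p = 0.015). The levels were low, and the WT libraries differed strongly from each other. Each call was lost without at least 1 SD library, with the highest adjusted p at 0.075 for Cidea (without WT replicate 1), 0.2 for Dio2 and 0.09 for Cox8b (both without WT replicate 2). Without WT replicate 1 and without WT replicate 2 the log2 FC was 2.65 and 4.35 for Cidea, 3.99 and 2.45 for Dio2 and 4.65 and 1.8 for Cox8b. Ucp1, the uncoupling protein that defines brown fat, stayed at 23 and 18 (WT) against 27 and 3 (KO) (adjusted p = 0.61), and Prdm16, a brown fat regulator, had 227 and 152 against 93 and 69 (adjusted p = 0.099). The median of the list was -0.24.

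Many macrophage markers rose. Of 12 tested markers of lipid-associated macrophages, 10 rose (3.21% of all tested genes did) and none fell, with a median log2 FC of 3.77. Gpnmb, a transmembrane glycoprotein of lipid-laden macrophages (chromosome 6, 49036546 to 49070929), had normalized counts of 541 and 278 (WT) against 12032 and 9401 (KO) (log2 FC 4.77 ± 0.31, adjusted p = 2.6e-06). Trem2, the lipid receptor of these cells (chromosome 17, 48346401 to 48354147), had 29 and 35 against 941 and 418 (log2 FC 4.26 ± 0.39, adjusted p = 3.7e-05), and Spp1, osteopontin, had 19 and 1 against 440 and 396 (log2 FC 6.05 ± 0.83, adjusted p = 0.00074). Every KO library was an order of magnitude above every WT library for each of them. Of the exon bases of Spp1, 18.8% are shared with Gm42793 on the same strand. Mmp12, macrophage elastase, had 268 and 394 (WT) against 6782 and 4419 (KO) (log2 FC 4.07 ± 0.27, adjusted p = 2.6e-06). Itgax, encoding CD11c, had 65 and 79 against 1109 and 588 (log2 FC 3.48 ± 0.31, adjusted p = 3.1e-05). KO replicate 1 was the higher of the 2 libraries for all 5 genes, and without it the log2 FC of Trem2 was 3.67. That of Spp1 was 7.71 without WT replicate 1 and 4.39 without WT replicate 2.

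Of 15 tested general macrophage markers 11 rose, again beside 3.21% of all tested genes, and none fell, with a median of 1.89. Adgre1, encoding F4/80, had normalized counts of 150 and 152 (WT) against 1699 and 922 (KO) (log2 FC 3.04 ± 0.25, adjusted p = 1.8e-05). Lyz2, lysozyme, had 1453 and 1616 against 14639 and 7251 (log2 FC 2.75 ± 0.25, adjusted p = 3.6e-05). The summed normalized counts of the macrophage list lay between 6498 and 6570 in WT and between 18303 and 31705 in KO libraries, and those of the lipid-associated list between 8028 and 8917 and between 30035 and 40073. In bulk RNA, fewer cells of a type and less RNA per cell cannot be told apart, and the same holds for more cells and more RNA per cell. The cells that carry these transcripts were not identified here, and macrophage markers were present in the WT adipocyte libraries too.

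Lysosomal genes rose in the same libraries as the macrophage markers, whose part in these rises was not tested. Of 22 genes, 13 rose (3.21% of all tested genes did) and none fell, with a median of 1.07. Among the 22, Atp6v0d2 and Cd63 are also on the lipid-associated macrophage list. Atp6v0d2, a subunit of the vacuolar proton pump in macrophages and osteoclasts, had normalized counts of 114 and 68 (WT) against 3169 and 2185 (KO) (log2 FC 4.89 ± 0.26, adjusted p = 6.7e-07). Ctss, the cysteine protease cathepsin S, had 576 and 491 against 8408 and 5380 (log2 FC 3.66 ± 0.20, adjusted p = 7.6e-07), and Lipa, the lysosomal acid lipase, had 658 and 659 against 4377 and 3007 (log2 FC 2.46 ± 0.18, adjusted p = 7.8e-06). The groups were well separated. Psap, the sphingolipid activator prosaposin, showed a smaller rise from a higher start, with 8054 and 8102 against 23292 and 19432 (log2 FC 1.40 ± 0.18, adjusted p = 0.00041). Of the 13 lysosomal rises 9 held without any 1 SD library.

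Further large rises were in genes with varied roles. Rasef, a Rab family GTPase with EF-hands (chromosome 4, 73714579 to 73790709), was at 0 in both WT libraries and at 101 and 138 normalized counts in KO libraries. Against a floor of 3 counts in each WT library this is at least 37.5-fold higher (adjusted p = 0.00078). Dhrs9, a short-chain dehydrogenase that oxidizes retinol, had 2 and 1 (WT) against 176 and 199 (KO) (log2 FC 6.26 ± 0.66, adjusted p = 0.00011). The fitted fold changes of such low genes depend on the added count of 1. Il7r, the interleukin-7 receptor, had 10 and 3 against 489 and 249 (log2 FC 5.72 ± 0.55, adjusted p = 4.8e-05). Adam8, a metalloprotease of leukocytes, had 126 and 107 against 2429 and 1750 (log2 FC 4.14 ± 0.22, adjusted p = 6.7e-07), and Rnf128, a ubiquitin ligase, had 16 and 7 against 287 and 208 (log2 FC 4.39 ± 0.56, adjusted p = 0.00047). These genes were near 0 or low in WT and clearly present in both KO libraries. The log2 FC of Il7r was 6.45 without WT replicate 1 and 4.99 without WT replicate 2.

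Adam2, best known as a sperm surface protein, had normalized counts of 5 and 0 (WT) against 108 and 106 (KO) (log2 FC 5.46 ± 0.84, adjusted p = 0.0018). Myh15, a slow myosin heavy chain, had 1 and 7 against 163 and 66 (log2 FC 4.71 ± 0.80, adjusted p = 0.0035), and Acta1, skeletal muscle actin (chromosome 8, 123891769 to 123894751), had 97 and 101 against 1359 and 2207 (log2 FC 4.12 ± 0.52, adjusted p = 0.00046). Other genes of skeletal muscle, looked up after Acta1 was seen, stayed low: Ckm was at 23 and 1 (WT) against 29 and 17 (KO), and Mylpf at 12 and 18 against 1 and 1. Slitrk5, a neuronal transmembrane protein, had 5 and 0 against 55 and 152 (log2 FC 5.24 ± 1.12, adjusted p = 0.016) and lost its call without KO replicate 2 (adjusted p = 0.13) or WT replicate 2 (0.2). Dpep2, a dipeptidase, had 4 and 6 against 213 and 124 (log2 FC 4.79 ± 0.91, adjusted p = 0.0077) and lost it without any 1 library but KO replicate 2 (adjusted p up to 0.081). Without WT replicate 1 and without WT replicate 2 the log2 FC was 6.75 and 4.17 for Adam2, 3.71 and 5.71 for Myh15 and 6.53 and 3.95 for Slitrk5. The count of Dpep2 may be incomplete, because 40.4% of its exon bases are shared with other genes on its strand and reads matching several genes were left out.

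Core genes of apoptosis were mostly not called on SD. None of 11 pro-apoptotic BCL2 family genes was called, with a median log2 FC of 0.18. Bcl2l11, which encodes BIM (chromosome 2, 128126038 to 128162547), had normalized counts of 1035 and 985 (WT) against 1330 and 990 (KO) (log2 FC 0.18 ± 0.18, adjusted p = 0.68), so the groups overlapped. Bcl2 had 419 and 561 against 322 and 331 (log2 FC -0.57 ± 0.22, adjusted p = 0.2), and Mcl1, another survival factor, 12552 and 12239 against 13849 and 11001 (adjusted p = 0.99). Of 7 anti-apoptotic genes 2 rose, beside 3.21% of all tested genes, Bcl2a1d from 7 and 10 to 76 and 58 (adjusted p = 0.0071) and Bcl2a1a from 1 and 7 to 38 and 61 (adjusted p = 0.029). These are near-identical leukocyte paralogs, and reads that matched several places were left out, so their counts may be incomplete. Both calls were lost without WT replicate 1, that of Bcl2a1a also without either KO library. The log2 FC of Bcl2a1a was 3.62, with 2.62 without WT replicate 1 and 4.62 without WT replicate 2.

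Of 19 death receptor, ligand and executor genes 4 rose (3.21% of all tested genes did) and none fell, with a median of 0.06. All 4 are inflammatory genes and each held without any 1 SD library. Tnf, the cytokine, had normalized counts of 680 and 688 (WT) against 4600 and 2791 (KO) (log2 FC 2.39 ± 0.23, adjusted p = 4.8e-05). Nlrp3, the inflammasome sensor, had 278 and 379 against 1925 and 1057 (log2 FC 2.13 ± 0.26, adjusted p = 0.00035), and Casp1, its protease, had 85 and 49 against 213 and 314 (log2 FC 1.99 ± 0.32, adjusted p = 0.0023). The fourth was Tnfrsf1b, TNF receptor 2, with 651 and 659 against 2967 and 1823 (log2 FC 1.83 ± 0.21, adjusted p = 0.00024). Casp8, which acts below death receptors, had 990 and 970 (WT) against 1326 and 1093 (KO) (adjusted p = 0.38).

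Of 19 tested chemokines 8 rose (3.21% of all tested genes did) and none fell, with a median of 0.83, and 5 of the 8 calls held without any 1 SD library. Ccl9 had normalized counts of 417 and 363 (WT) against 3654 and 2522 (KO) (log2 FC 2.96 ± 0.19, adjusted p = 2.3e-06), and Ccl6 had 154 and 163 against 1237 and 1132 (log2 FC 2.89 ± 0.21, adjusted p = 5.9e-06). Both encode myeloid CC chemokines. Ccl5, a T cell attractant, had 23 and 26 against 134 and 129 (log2 FC 2.38 ± 0.37, adjusted p = 0.0018), and Cxcl2, a neutrophil attractant, had 1604 and 1743 against 5996 and 3717 (log2 FC 1.5 ± 0.20, adjusted p = 0.00063). Ccl2, the monocyte attractant, was not among them, with 2694 and 2861 (WT) against 2641 and 1894 (KO) (adjusted p = 0.44).

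Genes of antigen presentation and proliferation are read beside the 3.21% of all tested genes that were called higher. Of 7 MHC class II genes 4 rose, among them Cd74, the invariant chain, with normalized counts of 1124 and 1124 (WT) against 2715 and 1795 (KO) (log2 FC 0.97 ± 0.18, adjusted p = 0.0076). The median of the list was 1.00. None of these 4 calls held in all fits without 1 SD library, and that of Cd74 was lost without either WT library (adjusted p up to 0.086). Of 25 cell cycle genes 2 rose, Mki67, the proliferation marker Ki-67, from 617 and 758 to 2732 and 1739 (log2 FC 1.67 ± 0.21, adjusted p = 0.00038), and Bub1b, a mitotic checkpoint kinase, from 36 and 85 to 241 and 146 (log2 FC 1.74, adjusted p = 0.028, and 1.13 with an adjusted p of 0.23 without WT replicate 1). The median of this list was 1.05, with 20 positive values.

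Of 14 interferon-induced genes 2 rose, Ifit1 (226 and 243 normalized counts in WT against 679 and 514, log2 FC 1.33 ± 0.21, adjusted p = 0.0022) and Ifi27l2a, whose adjusted p of 0.032 went up to 0.2 without WT replicate 1. Of 14 retinoid genes Dhrs9 and Aldh1a2, a retinoic acid synthase with 38 and 49 against 211 and 157 (log2 FC 2.05 ± 0.37, adjusted p = 0.0052, and 0.058 without WT replicate 1), rose, and the receptor gene Rarg fell (adjusted p = 0.046, and 0.27 without WT replicate 2). Beside 3.21% of all tested genes called higher and 1.5% called lower, of 27 extracellular matrix genes Col6a3 and Timp1 rose (adjusted p = 0.022 and 0.035, and 0.22 and 0.19 without WT replicate 2), and of 18 actin cytoskeleton genes Myl9 fell (adjusted p = 0.043, and 0.32 without WT replicate 1). The medians of these 4 lists lay between -0.14 and 0.41. None of 18 circadian clock genes was called, and 15 of them had negative values.

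**Figure D4:**
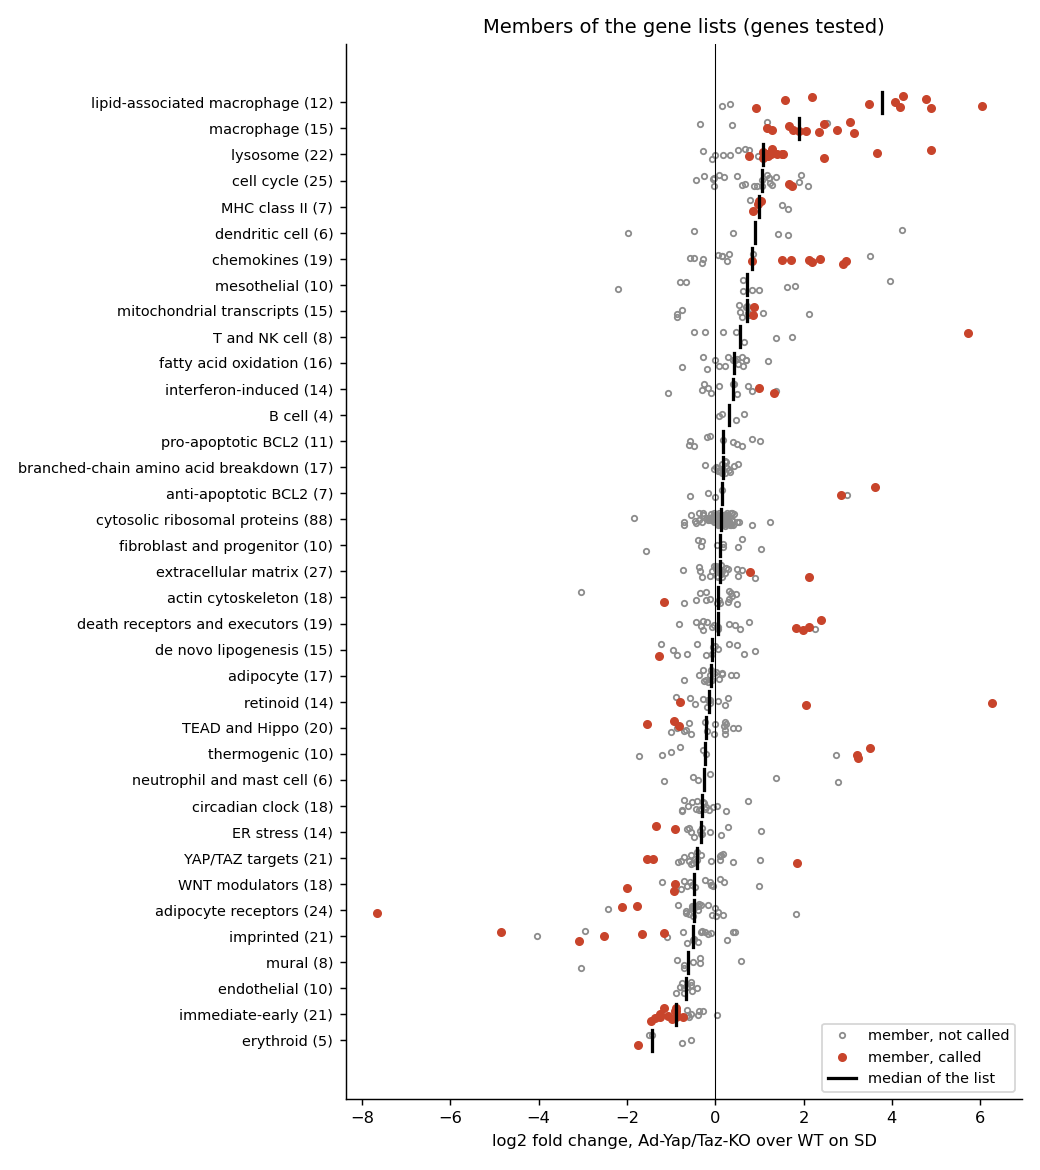
Log2 FC of KO over WT on SD (horizontal axis) for the tested members of each gene list (rows, with the number of genes tested), with called members filled, others open and the median as a bar. The medians run from 3.77 for lipid-associated macrophage genes to -1.44 for erythroid genes, beside -0.01 for all tested genes.

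Immediate-early genes respond within minutes to signals or to tissue dissociation. Of 21 tested, 13 fell (1.5% of all tested genes did), none rose, 8 were not called and 20 had a negative value, with a median of -0.88. Fos had normalized counts of 34860 and 30383 (WT) against 11145 and 12615 (KO) (log2 FC -1.46 ± 0.16, adjusted p = 0.00015). Jun, its AP-1 partner, had 40952 and 36846 against 14776 and 15377 (log2 FC -1.37 ± 0.16, adjusted p = 0.00022), and Ier2 had 4300 and 4338 against 1683 and 1927 (log2 FC -1.26 ± 0.15, adjusted p = 0.00023). These genes separated the groups with little spread within them. Of the 13 calls 5 held without any 1 SD library, and without WT replicate 1 the list held 7 calls. The time from tissue collection to RNA is not in the labels, and its part in the result was not tested. In the ER stress list, 2 of 14 fell, Ddit3, encoding the transcription factor CHOP, from 2320 and 2768 to 786 and 1266 (log2 FC -1.34 ± 0.21, adjusted p = 0.0017) and Chac1, a glutathione-degrading enzyme (adjusted p = 0.045, and 0.3 without WT replicate 1).

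Markers of other cells and of RNA quality also differed between libraries. All 10 endothelial genes had negative values (median -0.66) and none was called, with summed normalized counts from 28646 to 34330 in WT and at 26964 and 14870 in KO replicates 1 and 2. Both KO sums lay below both WT sums, and KO replicate 2 was the lower of the KO libraries. The 8 mural genes had a median of -0.61, and the 10 fibroblast and progenitor genes one of 0.11, neither list with a call. Of 5 erythroid genes Hba-a2 fell (1.5% of all tested genes did), with a log2 FC of -1.76 (adjusted p = 0.041 by limma). That call was lost without WT replicate 1, and the log2 FC was -2.39 without KO replicate 1 and -1.14 without KO replicate 2. Erythroid sums lay from 1164 to 1675 in WT and from 425 to 806 in KO libraries. Of 8 tested T and NK cell genes only Il7r rose (3.21% of all tested genes did), and the defining marker Cd3e was at 1 and 6 (WT) against 12 and 11 (KO). B cell, dendritic cell, neutrophil and mast cell, and mesothelial lists held no call, and 3 of 5 genes of epididymal epithelium were at 0 in all 4 libraries. Mitochondrial transcripts made up 9.51% and 9.56% of the WT libraries and 12.7% and 16% of the KO libraries, and the ribosomal protein genes 0.5% to 0.56%. The part of these shares in the calls was not tested.

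The libraries from mice on HFD share no sample with those on SD and allowed the same genes to be measured again. Both comparisons came from the same fit and share its estimate of the spread of each gene. Calls on SD and on HFD are therefore not fully independent. Of the 604 rises on SD, 470 (77.8%) were also called higher on HFD, where 17.1% of all tested genes were, and 7 were called lower. Of the 282 falls on SD, 171 (60.6%) were called lower on HFD, where 15.1% of all genes were, and 16 were called higher. The 21 immediate-early genes, of which 13 fell on SD, had a median log2 FC of 0.06 on HFD. There 3 of them were called lower and 5 higher. Oxtr had normalized counts of 3870 and 3771 (WT) against 12 and 9 (KO) on HFD, Nnat 9019 and 9292 against 214 and 328, and Amotl2 7068 and 7075 against 1731 and 1424. These 3 genes split by genotype on either diet. Rasef, at 0 in both WT libraries on HFD as well, had 106 and 25 in KO mice on HFD. The interaction of genotype and diet, which tests whether the effect of the deletion differed between diets, was called for 240 of the 604 rises and 126 of the 282 falls, and for 17.4% of all tested genes. Among these the effect was larger on HFD for 186 rises and 62 falls. The SD values that chose the rises and falls also enter the interaction. Its shares among them therefore cannot be set against the 17.4% of all tested genes. The number of genes with a call on SD and an interaction, 366, fell to 96 when the WT HFD pair was counted as 1 sample.

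A few genes went in opposite directions on the diets. Acta1, raised on SD, had normalized counts of 376 and 445 (WT) against 334 and 66 (KO) on HFD (log2 FC -1.45, adjusted p = 0.048; interaction -5.57 ± 0.74, adjusted p = 0.0022). Rasl11a, lowered on SD, had 30 and 35 against 55 and 130 (log2 FC 1.36, adjusted p = 0.031). Atf3, an immediate-early stress factor, had 6664 and 7843 (WT) against 4124 and 4609 (KO) on SD, but 2650 and 2546 against 4412 and 4665 on HFD (interaction 1.53, adjusted p = 0.0024), and its SD call was lost without WT replicate 2 (adjusted p = 0.17). For Acta1 the KO values on HFD differed widely from each other.

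**Figure D5:**
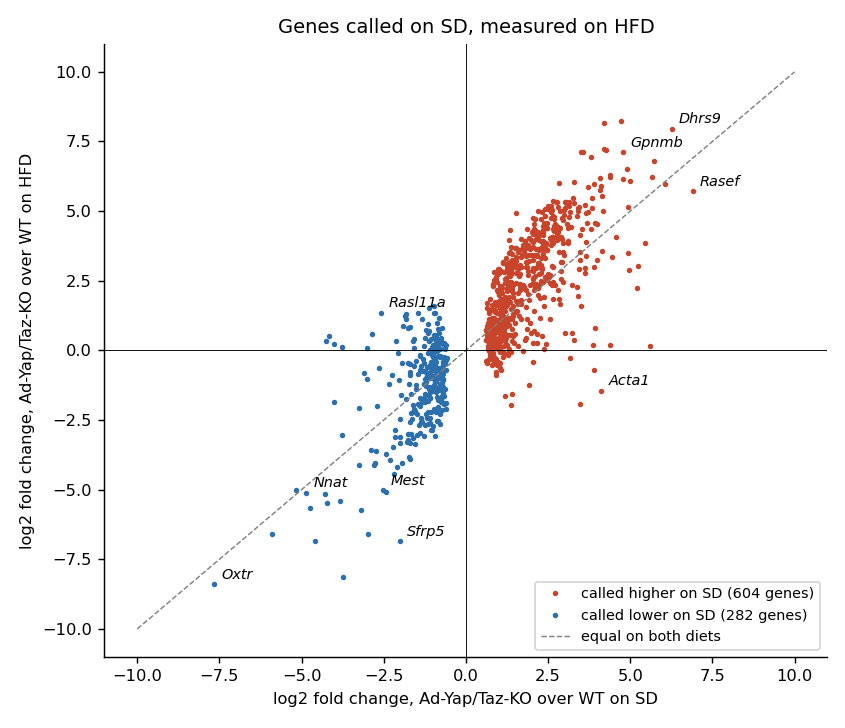
Log2 FC of KO over WT on HFD (vertical axis) against that on SD (horizontal axis) for the 886 genes called on SD, with the dashed line marking equal effects. The rises have a median of 2.41 on HFD and 1.67 on SD, and 23 genes, among them Acta1 and Rasl11a, were called in opposite directions.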

How the data were processed

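RNA from isolated epididymal adipocytes was sequenced in 8 libraries, 2 per genotype and diet. The authors aligned reads to GRCm38 with STAR 2.5.2b and counted those on exons with featureCounts 1.5.1, leaving out reads that matched several places or genes. The deposited score values are, by their spacing, reads per gene scaled by a size factor for each library and then rounded, presumably with DESeq2 1.14.1, which the submitters' processing notes name. Raw counts were not used here, so no count model was run.

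From these values log2(value + 1) was computed for the 18800 genes averaging 5 or more over the 8 libraries. A linear model with 4 group means was fitted in limma 3.58.1 (R 4.3.3) with a mean-variance trend and tested on simulated data. Calls required a p, adjusted by Benjamini-Hochberg, not above 0.05 together with a log2 fold change of 0.59 or more upward or downward. The 2 libraries per group limit the precision. Coordinates are from the GRCm38 annotation, and motif windows span 250 bases before each RefSeq start.

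Named genes were the 15 largest rises and falls among genes that were also called in the fit of the 4 SD libraries and with the WT HFD pair averaged, that had a mean of at least 50 over the SD libraries and that did not overlap between groups, together with up to 4 called members of each gene list and members that were not called. Cxcl2, Atf3, Peg3, Mmp12, Itgax, Psap, Ckm and Mylpf were named after their values were seen. The members and lists were chosen with earlier results of these data known. Some genes that the rule allows are not reported here. Alternatives were other pseudocounts, filters, scalings, samples, moderation, limits, a replicate block and leaving out each SD library; removal of GC content and length trends was added after seeing the data.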

Additional observations from a re-analysis of the deposited data

Results flagged for a closer look

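The effect of the deletion (log2, KO over WT) differed between diets for 43 of the genes named above, by the interaction term of limma at the same limits as the calls. Of all tested genes 17.4% passed these limits. Many of the named genes were chosen by their values on SD, so the number is a description. Values here are the effect on HFD minus that on SD, and the SD libraries are shared with the comparison above. The cause of these differences was not tested.

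Some of the named macrophage and inflammatory genes had higher effects on HFD, whereas Spp1, Ccl6, Ccl9 and Il7r did not pass the interaction limits. Where passed, the difference was 2.95 for Trem2, 2.34 for Gpnmb, 2.26 for Adgre1, 1.7 for Mmp12, 1.64 for Atp6v0d2, 1.41 for Adam8, 1.32 for Lyz2 and 1.27 for Ctss. It was 1.76 for Cd74, 1.59 for Cxcl2, 1.51 for Nlrp3, 1.33 for Tnfrsf1b, 1.33 for Ifit1, 1.31 for Tnf and 1.69 for Mki67. Bcl2l11, not called on SD, differed by 1.82, and Myof by 1.31.

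Of genes not called on SD, some had lower effects on HFD. The difference was -3.73 for Lep, -1.63 for Plin1, -1.42 for Adipoq and -1.03 for Pparg of the adipocyte list, -2.36 for the lipogenic gene Fasn and -1.07 for Tead1. Among genes lower on SD, it was -4.85 for Sfrp5, -2.54 for Bmp3, -2.51 for Mest, -2.07 for Mc2r, -1.78 for Elovl6, -1.57 for Npr3, -1.44 for Adora1, -1.3 for Fzd4, -1.29 for Prelp and -1.05 for Peg3.

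Other genes lower on SD had a positive difference, with 3.94 for Rasl11a, 2.59 for Hba-a2, 2.29 for Zim1, 2.12 for Myl9, 1.97 for Gm7008, 1.53 for Atf3, 1.05 for Rarg and 0.81 for Jun. Myh15, higher on SD, differed by 3.53, and Acta1 by -5.57.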

How the results depend on the processing

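Under the alternatives run, no called gene named here reversed its direction. Of genes not called, Adipoq, Plin1, Bcl2l11, Mcl1 and Ucp1 changed sign in at least 1 fit, among them Adipoq from -0.08 to 0.19 and Bcl2l11 from 0.18 to -0.03 without KO replicate 1. The 886 called genes (604 higher, 282 lower) became 438 (325 and 113) with no filter, 461 (348 and 113) with only the SD libraries and 441 (328 and 113) at an adjusted p of at most 0.01. The falls numbered 158 with the WT HFD pair as 1 sample and 170 at a log2 fold change of at least 1. Leaving out 1 SD library gave 381 to 778 calls, 307 to 520 rises and 74 to 396 falls. Of the called genes, 641 were also called on HFD in the same direction. This number was 350 with no filter, 368 at the stricter adjusted p and 314 to 614 without 1 library. The 366 calls with an interaction became 82, 96 and 92 with no filter, the WT HFD pair as 1 sample and the stricter adjusted p, and 87 to 469 without 1 library. Yap1 stayed at -0.71 but was not called with no filter (adjusted p = 0.084 by limma), with only the SD libraries (0.053), with the WT HFD pair as 1 sample (0.075) or at the 2 stricter limits, and it ranged from -0.72 to -0.69 without 1 library.

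Replicate numbers are shared between groups, but no label pairs the samples, and the correlation of the replicate differences of WT and KO libraries on SD was 0.1 over 12075 genes. With the replicate block 720 genes were called, of which 711 were among the 886. With 2 libraries per group, genes that missed the limits are not shown to be equal.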

Other observations

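The genes around Oxtr were looked up after its fall was seen. Oxtr is transcribed from the minus strand, and 2 processed pseudogenes and the snRNA gene Gm23002, which was under the filter on low values, are listed between its start and Rad18. Gm15519, 73699 bases away, had normalized counts of 179 and 215 (WT) against 10 and 0 (KO) on SD (log2 FC -5.89). Gm5578, 115601 bases away, had 15 and 43 against 0 and 1 (log2 FC -4.23, adjusted p = 0.028 by limma). Rad18, the next protein-coding gene, had 208 and 323 against 186 and 172 (log2 FC -0.53, adjusted p = 0.3 by limma), and was not called.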
